A study of Homo sapiens with 4 samples.

Results

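The UGT2B genes lie side by side on the long arm of chromosome 4, and the stretch that holds them was measured for contact with the nuclear lamina in 2 prostate cancer cell lines. The members were taken by position: every 40 kb bin overlapping hg19 chr4:69340000-70520000, together with 2 Mb on each side. This gave 30 bins for the UGT2B span, from 69320001 to 70520000, and 100 bins for the flanks. Of 71569 bins that carry a value for LNCaP and for VCaP, 130 were thus used. The rule itself uses position and no measured value, but it was chosen with earlier results of these data known.

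UGT2B enzymes sit in the membrane of the endoplasmic reticulum and attach glucuronic acid to small lipophilic molecules, which makes these soluble enough to leave the cell. UGT2B15 and UGT2B17 are the main enzymes that glucuronidate dihydrotestosterone and testosterone in prostate cells, so they help to end the androgen signal there. The nuclear lamina is a protein mesh under the inner nuclear membrane, and chromatin held against it is mostly late-replicating and poorly transcribed.

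The study sequenced lamin B1 chromatin immunoprecipitates (ChIP) and untreated input DNA. Both lines are established: the labels give LNCaP as prostate adenocarcinoma and VCaP as bone metastatic prostate cancer. Both were grown in continuous culture, with no treatment other than fixation, and each line gave 1 lamin B1 library and 1 input library. Every value below is a log2 ratio of ChIP over input for one line, so a negative value means less DNA in the lamin B1 precipitate than in the input, on the authors' scale. No difference between the lines was tested: there is 1 library of each kind per line, and a difference between lines cannot be told apart from one between libraries. The files hold no transcript levels, so neither the identity of the cells nor the activity of the UGT2B genes was checked.

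The gene order came from the RefSeq table of GRCh38.p14, in which all 7 members were found. From the low to the high end of the coordinates, the members are UGT2B17, UGT2B15, UGT2B10, UGT2B7, UGT2B11, UGT2B28 and UGT2B4. UGT2B7 is known for the glucuronidation of morphine, UGT2B4 for that of bile acids and UGT2B10 for that of nicotine. UGT2B28 has been described as an androgen-conjugating enzyme. UGT2A3, an enzyme of the sister subfamily, is the only other protein-coding gene between UGT2B17 and UGT2B4 in that table, which also lists 25 pseudogenes there, 4 of them named as UGT2B pseudogenes. TMPRSS11E, a membrane-bound serine protease gene, is the neighbour before UGT2B17. UGT2A2 and UGT2A1 follow UGT2B4, and SULT1B1 and SULT1E1, which encode sulfotransferases of small phenols and of oestrogens, come next. The bins are in hg19 and the table is in another build, so no bin was assigned to a gene, and values are given by position within the span.

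The UGT2B genes are duplicates of one another, and their promoter sequences show how alike they remain. How the authors' alignment treated reads that match several copies is not given in the sources used here. RefSeq windows of 250 bases before to 50 after the gene start were at hand for 4 of the 7 members. In GRCh38.p14 these are chr4:68670603-68670902 on the minus strand for UGT2B15, chr4:68815744-68816043 on the plus strand for UGT2B10, chr4:69096224-69096523 on the plus strand for UGT2B7 and chr4:69214699-69214998 on the minus strand for UGT2B11. Capitals mark the 3 stretches of at least 9 letters that all 4 share, and each sequence runs 5′ to 3′ on the gene's strand.

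UGT2B15: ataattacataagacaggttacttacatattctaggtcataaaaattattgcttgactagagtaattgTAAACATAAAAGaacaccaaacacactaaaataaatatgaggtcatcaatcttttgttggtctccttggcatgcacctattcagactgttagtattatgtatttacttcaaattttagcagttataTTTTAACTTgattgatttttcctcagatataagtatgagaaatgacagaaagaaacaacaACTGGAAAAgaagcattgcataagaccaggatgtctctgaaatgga
UGT2B10: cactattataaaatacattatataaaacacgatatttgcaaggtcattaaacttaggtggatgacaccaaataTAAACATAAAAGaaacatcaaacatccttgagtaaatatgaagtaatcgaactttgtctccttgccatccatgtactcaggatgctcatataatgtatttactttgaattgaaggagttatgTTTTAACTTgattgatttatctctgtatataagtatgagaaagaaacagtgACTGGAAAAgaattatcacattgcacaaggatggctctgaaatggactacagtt
UGT2B7: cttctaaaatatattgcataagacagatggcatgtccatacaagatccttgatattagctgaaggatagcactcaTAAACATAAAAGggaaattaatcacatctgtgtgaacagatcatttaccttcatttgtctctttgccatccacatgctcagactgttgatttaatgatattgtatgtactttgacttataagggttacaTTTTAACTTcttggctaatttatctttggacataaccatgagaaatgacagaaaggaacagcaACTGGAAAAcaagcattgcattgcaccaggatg
UGT2B11: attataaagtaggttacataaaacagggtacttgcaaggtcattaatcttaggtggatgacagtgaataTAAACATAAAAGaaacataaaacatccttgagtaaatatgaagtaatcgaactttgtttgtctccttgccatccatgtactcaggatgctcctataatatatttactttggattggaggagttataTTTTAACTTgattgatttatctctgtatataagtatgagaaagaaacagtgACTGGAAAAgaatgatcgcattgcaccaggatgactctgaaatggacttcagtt

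UGT2B10 and UGT2B11 were the closest pair, with 90.1% identical columns in a global alignment. The other 5 pairs had 63.1% to 70.6%. The first shared stretch, TAAACATAAAAG, was found on either strand in 6 of the 35116 RefSeq promoter windows, 4 of which are those printed here. The stretches TTTTAACTT and ACTGGAAAA were found in 0.493% and 0.473% of all windows. The 4 windows were poor in G and C, at 30.3% in UGT2B15, 31.0% in UGT2B10, 33.0% in UGT2B11 and 35.0% in UGT2B7, against a median of 58.7% over all windows.

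In addition, 3 short motifs were searched on both strands. The androgen receptor letters AGAACA occurred in UGT2B15 and in no other of the 4, against 14.8% of all windows. That match begins in the last letters of the first shared stretch. The TATA box letters TATAAA occurred in UGT2B10 and UGT2B11, against 11.5% of all windows. In each, the match nearest the gene start runs into the first shared stretch. That stretch begins 177 bases before the start in UGT2B10 and 181 in UGT2B11. Only these exact letters were searched. The letters GTTAAT of hepatocyte nuclear factor 1 occurred in none of the 4, against 6.88%. These matches describe letters and not bound sites.

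The whole UGT2B span was depleted of lamin B1 in both lines. In LNCaP the 30 bins had a mean log2 enrichment of -0.59 with a noise SD of 0.05, which is a ChIP to input ratio of 0.665. In VCaP the mean was -0.55 with a noise SD of 0.07, a ratio of 0.683. The noise SD is that of the mean, from the scatter between bins 3 apart over the genome, with 1 separate value counted per 3 bins. It covers scatter between bins 3 apart, and neither slower changes along the genome nor the spread between cultures.

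All 30 bins were below 0 in each line. Over the genome, 43.1% of bins were below 0 in LNCaP, 33.1% in VCaP and 19.9% in both. LNCaP bins ran from -1.11 to -0.25 with a median of -0.55, and VCaP bins from -0.85 to -0.08 with a median of -0.56. The ranges of the lines overlapped. Over the genome the median was 0.06 for LNCaP and 0.19 for VCaP, a shift of 0.13 between the lines.

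**Figure D1:**
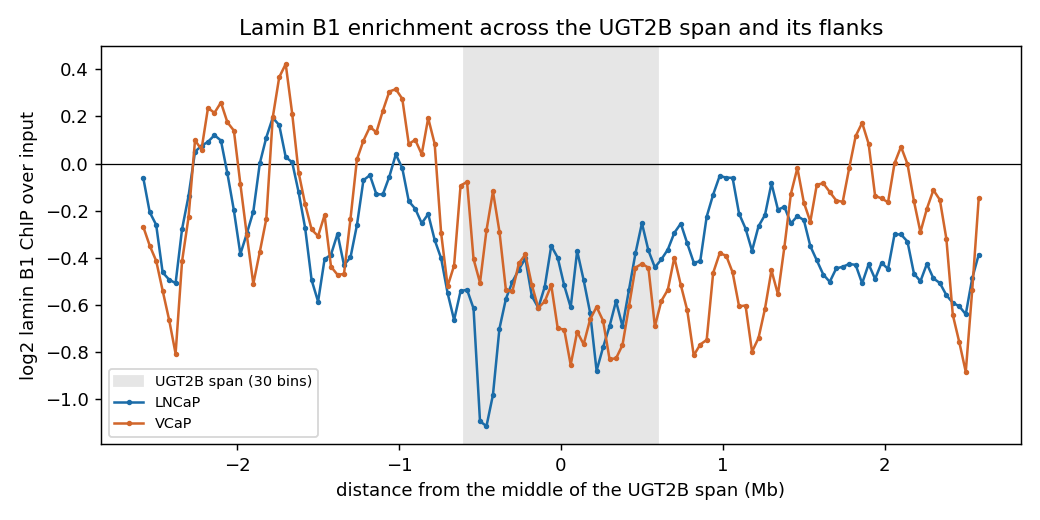
Log2 lamin B1 ChIP over input (vertical axis) in 130 bins of 40 kb against distance from the middle of the UGT2B span in Mb, for LNCaP (blue) and VCaP (orange), with the 30 bins of the span shaded. Every bin in the shaded part is below 0 in both lines, whereas the lower flank crosses 0 several times.

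Most of the span belonged to the most depleted part of the genome. The lowest 10% of bins lay at or below -0.36 in LNCaP and at or below -0.38 in VCaP. In LNCaP 28 of the 30 span bins were in that class and in VCaP 26 were, against 10.0% of the genome by definition. In both lines at once it was 24 of 30, against 2.73% of the genome and 4.62% of chromosome 4. The flanks were also richer in such bins than the genome, though less so than the span. In LNCaP 28% of the lower flank and 56% of the upper flank were in the class, and in VCaP 22% and 44%. In both lines at once it was 14% and 18%. The 2 LNCaP bins outside the class were bin 14 of the span at -0.35 and bin 28 at -0.25. The 4 VCaP bins outside it were bin 1 at -0.08, bin 4 at -0.28, bin 5 at -0.12 and bin 6 at -0.29, all near the low end of the span.

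The authors also deposited a state for each bin. A hidden Markov model assigned each bin to an associated or a non-associated state, and the associated state is the one with the higher mean. None of the 30 bins was associated in LNCaP or in VCaP, and none of the 100 flank bins was either. Over the genome, 62.1% of bins were outside the associated state in LNCaP, 55.6% in VCaP and 38.4% in both. Being outside it is thus common.

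The non-associated run around the span was the longest of chromosome 4 in each line. In LNCaP it reached from 63440001 to 74960000, 11.5 Mb, among 66 such runs on the chromosome with a median of 860 kb. In VCaP it reached from 58960001 to 78120000, 19.2 Mb, among 57 runs with a median of 1040 kb. The nearest associated bin lay 5.88 Mb below and 4.44 Mb above the span in LNCaP. In VCaP it lay 10.4 Mb below and 7.60 Mb above. The cluster therefore sat deep inside a non-associated stretch in both lines and not at its border.

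A measure that does not use the states is the sign of the value. The unbroken run of bins below 0 around it spanned 3.88 Mb in LNCaP, the longest of the 230 such runs on chromosome 4, from 68920001 to 72800000. In VCaP it spanned 2.56 Mb, the second longest of 300, from 69160001 to 71720000. Both runs began just below the span, and both went on for more than 1 Mb above it.

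The level of the span was then compared with its surroundings. In LNCaP the mean was -0.20 in the lower flank and -0.36 in the upper flank. The span minus both flanks (mean -0.28) was -0.31, with a noise SD of 0.05. In VCaP the means were -0.10 and -0.34, and the span minus both flanks (mean -0.22) was -0.33, with a noise SD of 0.08. Each difference was more than 4 noise SDs wide. The gap to the mean of the lower flank was the larger one, -0.39 in LNCaP and -0.45 in VCaP. The gap to the mean of the upper flank was -0.23 and -0.21. In VCaP this was no step at the upper edge. The sections from 0 to 400 kb and from 400 to 800 kb above the span averaged -0.58 and -0.56, no higher than the span.

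The rest of chromosome 4 was higher still. Outside the window its 4566 bins averaged 0.13 for LNCaP and 0.04 for VCaP. The span minus these bins was -0.72 for LNCaP (noise SD 0.05) and -0.59 for VCaP (noise SD 0.07).

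**Figure D2:**
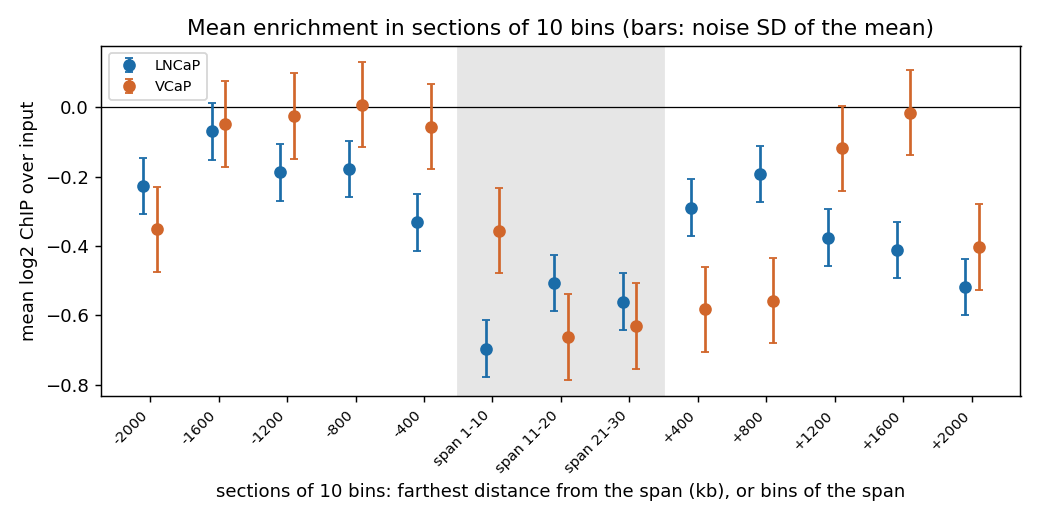
Mean log2 ChIP over input in consecutive sections of 10 bins (400 kb) through the lower flank, the span (shaded) and the upper flank, for LNCaP (blue) and VCaP (orange); error bars are the noise SD of a section's mean. The span sections lie between -0.70 and -0.36, and the VCaP mean is highest in the lower flank, at 0.01 between 400 and 800 kb from the span.

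The flanks were uneven, and the lines differed within them. From 0 to 400 kb below the span LNCaP had a mean of -0.33 and VCaP one of -0.06. The low LNCaP values thus began before the span did. From 400 to 800 kb below it the means were -0.18 and 0.01. Above the span, VCaP was the lower line at first, with -0.58 against -0.29 in LNCaP from 0 to 400 kb and -0.56 against -0.19 from 400 to 800 kb. Farther out it was the higher line, with -0.12 against -0.38 from 800 to 1200 kb and -0.02 against -0.41 from 1200 to 1600 kb. The noise SD of such a difference was 0.11. The order of the lines thus reversed within the upper flank.

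The highest LNCaP value of the window was 0.19, at 68120001 to 68160000 in the lower flank, where VCaP had 0.20. The highest VCaP value was 0.42, at 68200001 to 68240000, where LNCaP had 0.03. Both lines thus peaked in the same part of the lower flank, without reaching the associated state. The largest rise between bins 3 apart was also shared: from 67520001 to 67680000, values went from -0.51 to 0.05 in LNCaP and from -0.81 to 0.10 in VCaP.

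Averaged over the span, the lines differed by less than the noise. VCaP minus LNCaP was 0.04 with a noise SD of 0.06, whereas over the genome the mean difference was 0.12. Relative to the genome median of each line the span was lower in VCaP, at -0.74 against -0.65, so the sign of this small difference follows the zero point. Bin by bin, VCaP was higher by more than 2 noise SDs (0.39) in 5 of the 30 bins (16.7%), a smaller share than the 27.6% over the genome. It was lower by that much in 0, against 14.1%. Chromosome 4 as a whole had 11.6% and 21.6%. Measured from the genome medians, the split in the span was 3 bins higher and 3 lower in VCaP. The shares over the genome were not computed for that zero point, so this split cannot be called particular to the span.

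In the deposited values, which average each bin with the 2 before it, the 5 bins were all in the first 6 of the span. The gene order, taken from another build, starts at that end with UGT2B17 and UGT2B15, but no bin was assigned to either gene. Bin 1 had -0.54 in LNCaP and -0.08 in VCaP. Bin 3 had -1.09 and -0.51. Bin 4, from 69440001 to 69480000, had -1.11 and -0.28. This was the lowest LNCaP value of the whole window, and 0.471% of all LNCaP bins lay lower, whereas 14.3% of all VCaP bins lay below the VCaP value. Bin 5, from 69480001 to 69520000, had -0.98 and -0.12, the largest difference of deposited values in the window at 0.86. Bin 6 had -0.70 and -0.29. Bin 2, at -0.61 and -0.40, fell short of the threshold. Adding the noise of both lines in quadrature raised the threshold to 0.54 and left 3 of the 5 bins. The share over the genome at that threshold was not computed.

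With the average undone, the difference lay mainly in bins 3 and 4. VCaP minus LNCaP was then 0.22 in bin 1, 0.20 in bin 2, 1.34 in bin 3 and 0.95 in bin 4. It was 0.29 in bin 5 and -0.0088 in bin 6. The noise SD of an undone difference was 0.29. VCaP was higher by more than 2 such SDs (0.59) in 2 of the 30 bins (6.67%), a smaller share than the 18.8% over the genome. The 2 bins were bins 3 and 4, and bin 3 held the largest undone difference of the window. VCaP was lower by more than 0.59 in 1 of the 30 bins (3.33%), bin 18 at -0.65, also a smaller share than the 8.58% over the genome. The deposited value of bin 1 also averages the flank bin from 69240001 to 69280000, whose undone values were -0.66 in LNCaP and 0.28 in VCaP.

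**Figure D3:**
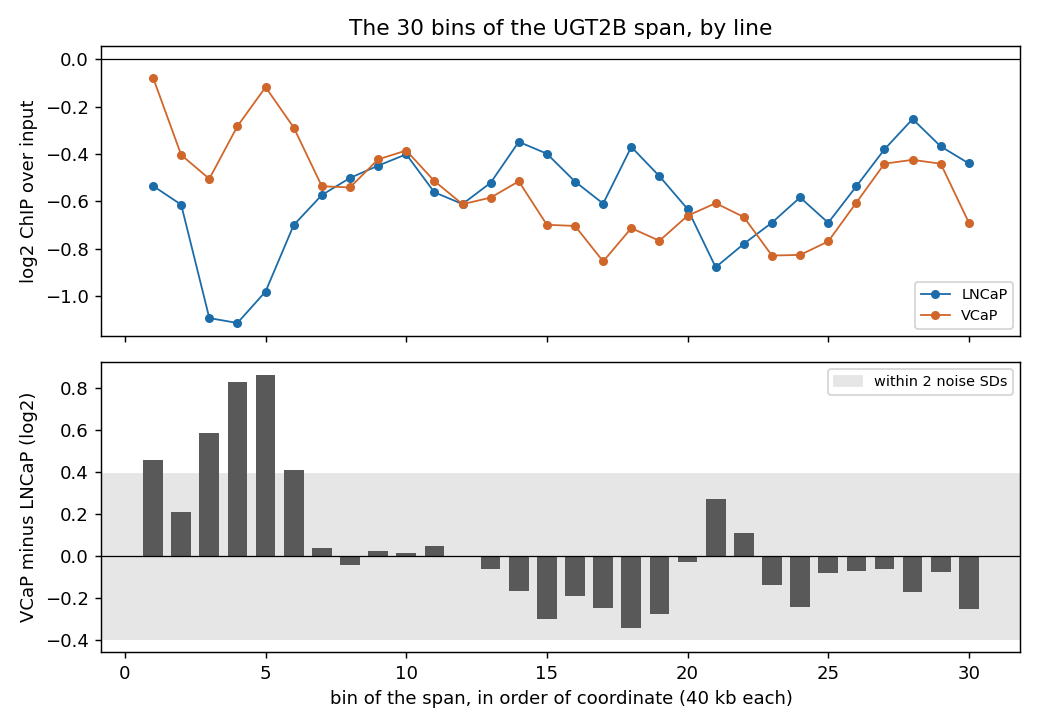
Upper panel: log2 ChIP over input in each of the 30 bins of the span in order of coordinate, for LNCaP (blue) and VCaP (orange). Lower panel: VCaP minus LNCaP as bars, with the band of 2 noise SDs (0.39) shaded; 5 bars of these deposited, averaged values leave the band, all among the first 6 bins and all upwards.

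Neighbouring deposited values share averaged entries, so the span was also read in 10 separate blocks of 120 kb. Each deposited value is a mean of its own bin and the 2 before it, and the value of a block's last bin is the mean of that block alone. The first block, from 69320001 to 69440000, had -1.09 in LNCaP and -0.51 in VCaP. The second, to 69560000, had -0.70 and -0.29. These 2 blocks differed between the lines by more than the 0.39 threshold, at 0.59 and 0.41, and over the genome 27.6% of deposited values differed that much in this direction.

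The next pair of blocks was level between the lines. The third block, to 69680000, had -0.45 in LNCaP and -0.42 in VCaP, and the fourth, to 69800000, had -0.61 in both. In the fifth and sixth blocks, from 69800001 to 70040000, VCaP was the lower line, with -0.70 against -0.40 and -0.71 against -0.37. Both differences, -0.30 and -0.34, stayed within the threshold as deposited. The lowest VCaP bin of the span was bin 17, in the sixth block, from 69960001 to 70000000, with -0.85 against -0.61 in LNCaP.

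The seventh block, from 70040001 to 70160000, held a second LNCaP low of -0.88, against -0.61 in VCaP. The eighth, to 70280000, had -0.58 in LNCaP and -0.83 in VCaP. The ninth, to 70400000, was the least depleted of these last 4, with -0.38 and -0.44. The tenth, to 70520000, had -0.44 and -0.69. The differences of these 4 blocks ran from -0.25 to 0.27, inside the threshold. Which blocks passed depended on the zero point and on the noise used. Measured from the genome medians, block 1 passed at 0.45, block 2 did not at 0.28, and blocks 5 and 6 passed at -0.43 and -0.48 with VCaP lower. With the noise of both lines in quadrature, block 1 alone passed. No share over the genome was computed for either of these settings. All 10 blocks were below 0 in both lines.

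The span was also averaged over 10 bins at a time. The first 10 bins averaged -0.70 for LNCaP and -0.36 for VCaP, the middle 10 had -0.51 and -0.66, and the last 10 had -0.56 and -0.63. VCaP minus LNCaP was 0.34, -0.16 and -0.07 with a noise SD of 0.11 each. Between the first 10 and the other 20 bins this difference changed by 0.45, with a noise SD of 0.13. By these means LNCaP was lowest in the 10 bins where VCaP was highest. In neither line did the first 10 bins differ from the middle or last 10 by 2 noise SDs. The split was chosen after seeing the data, so its size against the noise is no independent measure. Undoing the 3-entry average left the contrast at 0.42, but an average over 3 bins can change means over 10 and 20 bins only little.

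With the average undone, every one of the 30 bins was still below 0 in LNCaP, from -1.60 in bin 3 to -0.06 in bin 13. In VCaP 29 of 30 were, from -1.25 in bin 15 to 0.09 in bin 4. The span means were -0.59 in both lines. The deepest single LNCaP bin thus moved from bin 4 to bin 3, and the average, which trails by about 1 bin, had spread it over bins 3 to 5.

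Across the 130 bins of the window the lines followed each other with a Pearson r of 0.52 (Spearman rho 0.50), compared with 0.44 on chromosome 4 and 0.28 over the genome. These describe bins that share averaged entries and the same 4 libraries. It was highest in the lower flank, at 0.71 over 50 bins. Over the 30 bins of the span it was -0.18 (Spearman rho -0.015), and over the 50 bins of the upper flank it was -0.12 (rho -0.18). Both of these are weak, and neither shows the lines rising and falling together there.

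**Figure D4:**
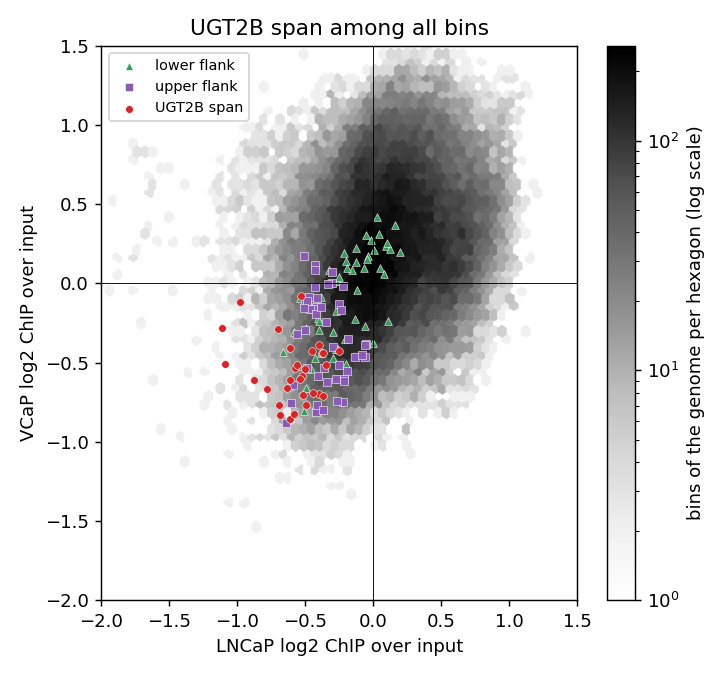
VCaP against LNCaP log2 ChIP over input for all bins of the genome (grey hexagons, log count scale) with the bins of the UGT2B span (red circles), the lower flank (green triangles) and the upper flank (purple squares); 120 of 71569 bins lie outside the axes. The 30 span bins fall in the lower left quadrant, and the 3 with the lowest LNCaP values, -0.98 or lower, lie farthest to the left.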

How the data were processed

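Lamin B1 ChIP and input libraries of LNCaP and VCaP were grouped by title, with 1 library per group. The deposited files give log2 enrichment of ChIP over input per 40 kb bin, and a hidden Markov model state per bin, as their names say. The submitters' processing notes name STAR and hg19, and chromosome 4 ends at 191154276 in both tables. How ChIP and input were scaled is not given in the sources used here, and depth is unknown. Bins with a value in both lines were used. The 3-entry average was checked on entries wider than 40 kb: for LNCaP, the deposited log2 values there had a median size of 0.21, and of 0.0069 once an average of 3 was undone. For VCaP these were 0.33 and 0.0066.

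Noise is the median absolute difference between bins 3 apart, times 1.4826 and divided by the square root of 2. A difference past 2 noise SDs of the line difference counts as beyond scatter. On 20 simulated chromosomes of 4696 bins that held noise alone, the noise estimate was 0.953 to 1.03 times the true value. It was not checked on values whose level changes along the chromosome. The undone average was checked on 20 simulated chromosomes with such changes, and its median error was at most 0.0095.

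The members, lists and sections were chosen with earlier results of these data known. The text names the member genes, the extreme bins, the largest steps and the runs. Blocks and sections of equal size were added after seeing the data. Values per gene, including a list of neighbouring and pathway genes, were planned where an annotation of hg19 was at hand and were not analysed here. The alternatives tried were the undone average, other bins, flanks, centrings and scalings, other definitions of the associated state and other noise estimates. Promoter windows are RefSeq's, of GRCh38.p14. Python 3.11.15, numpy 2.4.6, pandas 2.3.3, scipy 1.17.1, Biopython 1.88 (global alignment) and matplotlib 3.10.9 were used.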

Additional observations from a re-analysis of the deposited data

Results flagged for a closer look

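Contrasts inside the UGT2B span had opposite signs in the lines, and whether they differ was not tested, as each line has 1 library pair. The first 10 bins minus the middle 10 gave -0.19 in LNCaP and 0.31 in VCaP. The first 10 minus the last 10 gave -0.14 in LNCaP and 0.27 in VCaP. The middle 10 minus the last 10 gave 0.053 in LNCaP and -0.032 in VCaP. The noise SD of each such contrast was 0.12 in LNCaP and 0.17 in VCaP, so no single one of these 6 values reached 2 noise SDs of its own line.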

How the results depend on the processing

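For 13 results, 67 alternative values were computed. Of these, 54 counted as unchanged. For levels and differences this meant within 1 noise SD of the main value, which can still be a large share of a small value. For counts it meant within 1.5 times the main value, and for shares an equal value. For correlations it meant within 0.16, a standard error from the number of separate bins and not bin noise. Another 12 moved farther, and the correlation changed sign when taken over the span alone. Depletion of the span and its level below the flanks kept their direction under every alternative run for them. The share of associated bins stayed at 0 in both lines. Most of its alternatives could give no other value, because all 30 bins were below 0 and none was associated. Centring each line on its genome median moved the span mean to -0.65 in LNCaP and -0.74 in VCaP, and VCaP minus LNCaP to -0.10. That difference was -0.050 by the median of bins and -0.11 without the first 10 bins, and it ranged from -0.11 to 0.09 over its 9 alternatives, 6 of them with the sign of the deposited values and 3 with the other. The deposited difference was itself within its noise. The span minus its flanks moved to -0.25 in LNCaP by the median. Without the first 10 bins it was -0.26 in LNCaP and -0.43 in VCaP. The count of bins beyond scatter fell from 5 to 2 at 3 noise SDs, and to 3 with the noise of both lines in quadrature or with the average undone. The 2 blocks beyond scatter became 3 after centring and 1 in quadrature. Centring split the count of bins into 3 with VCaP higher and 3 with VCaP lower. Apart from the undone average, no share over the genome was computed for these alternative counts. Over the window, the correlation stayed between 0.48 and 0.54 under its other alternatives. The span alone is a different set of 30 bins, with an r of -0.18 and a Spearman rho of -0.015, both weak. The first 10 bins against the other 20 kept their sign under all 3 alternatives, but for LNCaP alone the contrast went from -0.16 to -0.065 by the median of bins. The cause of these shifts was not tested. The alternatives chosen after seeing the data were the quadrature noise, leaving out the first 10 bins, those for the first 10 bins against the other 20, the counts with bins moved by 1 or the average undone, and those for blocks. No paired analysis was possible because no line has more than 1 library of a kind. Read depth is not known, so the scatter between bins is the only limit given.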
